A study of Mus musculus with 14 samples.

Results

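The 10 integrin subunit genes described here are Itga2, Itga3, Itga5, Itga6, Itga9, Itgav, Itgb1, Itgb4, Itgb5 and Itgb8. They were taken by name from the 26 integrin alpha and beta subunit genes looked up among the 23284 genes of the count files, and all 10 passed the filter on low counts. Itga3 and Itgb4 lie on chromosome 11, Itga6 and Itgav on chromosome 2, and Itga2, Itga5, Itga9, Itgb1, Itgb5 and Itgb8 on chromosomes 13, 15, 9, 8, 16 and 12. The 14 RNA-seq libraries came from primary small cell lung cancer of genetically engineered mice, a neuroendocrine lung carcinoma. In 7 tumours (genotype Rb1/Trp53/Crebbp, called RPC) the histone acetyltransferase gene Crebbp was deleted as well as Rb1 and Trp53, and in the other 7 (genotype Rb1/Trp53, called RP) only Rb1 and Trp53 were. Both genotypes thus share the loss of both tumour suppressor genes. The labels give neither the Cre driver nor the mouse age. They also leave unsaid whether the tumours were from separate mice, and the p-values cover no more than the spread among these libraries.

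Integrins are the cell surface receptors through which cells hold on to the extracellular matrix. Each receptor is a pair of 1 alpha and 1 beta chain, and the pair decides which matrix protein is bound. The beta chain encoded by Itgb1 pairs with many alpha chains, whereas Itgb4 pairs with Itga6 alone and Itgav pairs with several beta chains, those of Itgb5 and Itgb8 among them. Leukocytes, platelets, endothelium, fibroblasts and epithelium each carry their own set, so the integrin RNA of a whole tumour mixes that of cancer cells with that of the stroma.

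Libraries held 10060969 to 24052799 counts in genes in RPC and 10965714 to 23678648 in RP. Levels are given per 1000000 counts in genes (CPM). Crebbp itself averaged 63.9 ± 4.44 CPM in RPC and 77.6 ± 14.8 CPM in RP (SD, n = 7 each), and counts over a whole gene do not check a deletion whose exons the labels do not name. All 8 neuroendocrine markers were above 1 CPM in at least 1 tumour of each group, with sums of 4290 to 5440 CPM in RPC tumours 3, 5 and 6, 4150 to 6630 CPM in RPC tumours 1, 2, 4 and 7 and 5530 to 12300 CPM in RP.

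Ctss, a macrophage protease, was at most 0.0994 CPM in RPC tumours 3, 5 and 6 and at least 61.6 CPM in RPC tumours 1, 2, 4 and 7. The 3 tumours, all with Ctss below 1 CPM, are therefore shown apart. The 9 macrophage markers summed to 4.87 to 8.11 CPM in these 3 tumours, 401 to 2040 CPM in the other RPC tumours and 456 to 1440 CPM in RP. Of the 9, 1 was at 0 in all 3. Ctss, by which the 3 tumours were chosen, is also among the 9, so part of this gap follows from that choice. The 7 endothelial markers summed to 10.5 to 113 CPM, 343 to 1540 CPM and 529 to 2410 CPM in the same order, with 3 of the 7 at 0 in all 3 tumours. The 6 fibroblast markers summed to 3.28 to 120 CPM, 275 to 575 CPM and 221 to 878 CPM, and 4 of the 6 were below 1 CPM in all 3. The 6 mural cell markers summed to 3.36 to 8.45 CPM, 65.3 to 135 CPM and 73.0 to 206 CPM, and 3 of the 6 were below 1 CPM in all 3. The tops of the endothelial and fibroblast sums came from single genes, Vwf at 106 CPM in RPC tumour 3 and Pdgfra at 111 CPM in RPC tumour 5. RPC tumour 5 also had 78.8 CPM of Kdr, and its Pdgfra and Kdr levels were the highest of the 14 tumours. The 6 T and NK cell markers summed to 0.413 to 0.696 CPM in the 3 tumours, 4.07 to 20.5 CPM in the other RPC tumours and 5.48 to 45.3 CPM in RP. The 5 alveolar type 2 cell markers summed to 8.98 to 18.6 CPM in the 3, 9.87 to 2950 CPM in the other RPC tumours and 52.0 to 1570 CPM in RP, and the 4 club and ciliated cell markers to 3.20 to 23.8, 41.7 to 2360 and 36.8 to 2490 CPM. The 4 platelet markers, in the same order at 2.29 to 25.8, 7.77 to 27.5 and 10.9 to 43.1 CPM, overlapped across the groups. The 4 alveolar type 1 cell markers, at 7.13 to 26.5, 12.7 to 565 and 27.8 to 234 CPM, overlapped in RPC only. The 4 B cell markers were at 0.704 to 1.89, 5.25 to 17.8 and 2.4 to 216 CPM. Neutrophil markers, 3 in number, were at 0.088 to 0.795, 2.96 to 12.2 and 2.1 to 24.6 CPM. In a bulk sample, fewer cells of a type and less RNA per cell cannot be told apart.

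Crebbp encodes the CREB-binding protein, and CREB binds the cyclic AMP response element TGACGTCA. Promoter windows from RefSeq (GRCm38.p6, 300 bases each) were found for 8 of the 10 genes, leaving Itga6 and Itgb4. None of the 8 held the full element on either strand, which 1.88% of 27025 promoter windows did. The shorter element TGACG, which the full one contains, was in 2 of the 8, against 21.0% of all windows. The 250 bases before the start site are shown for Itgb1 and Itga9, the most even and one of the most variable members in RPC, which are also the 2 with the shorter element (in capitals), and for Itgb8, the member with the highest fitted RPC over RP ratio. They are at chr8:128685404-128685653 on the plus strand, chr9:118711442-118711691 on the plus strand and chr12:119238277-119238526 on the minus strand.
Itgb1: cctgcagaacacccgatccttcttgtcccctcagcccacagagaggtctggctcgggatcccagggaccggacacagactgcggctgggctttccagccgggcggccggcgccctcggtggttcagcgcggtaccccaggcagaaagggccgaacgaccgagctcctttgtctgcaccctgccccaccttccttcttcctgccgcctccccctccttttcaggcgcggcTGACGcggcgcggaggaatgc
Itga9: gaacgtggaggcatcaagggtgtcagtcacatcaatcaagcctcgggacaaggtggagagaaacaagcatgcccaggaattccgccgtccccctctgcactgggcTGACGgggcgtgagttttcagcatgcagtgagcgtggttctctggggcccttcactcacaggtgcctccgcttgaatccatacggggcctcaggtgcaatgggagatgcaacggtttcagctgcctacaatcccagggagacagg
Itgb8: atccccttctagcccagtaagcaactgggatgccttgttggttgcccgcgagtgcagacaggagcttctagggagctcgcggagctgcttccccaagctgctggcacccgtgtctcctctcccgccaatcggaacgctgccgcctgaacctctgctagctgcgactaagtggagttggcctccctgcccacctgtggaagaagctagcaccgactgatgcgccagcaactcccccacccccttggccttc
A match or its absence describes these letters only.

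The first question was how much of each subunit the tumours held. Per kilobase of the longest coding transcript, Itgb1 stood above every other member in each of the 14 tumours. Its median was 118 CPM per kb in RPC and 119 CPM per kb in RP, and its range did not touch that of Itga3, next in order in both genotypes. Itga3 had medians of 20.2 CPM per kb in RPC and 37.2 CPM per kb in RP, Itgb5 of 16.7 and 24.2, and Itga6 of 15.6 and 18.2. The ranges of these 3 overlapped, so their order is not firm. Itgav, at medians of 2.42 CPM per kb in RPC and 9.85 in RP, and Itga9, at 2.16 in RPC and 7.87 in RP, came next, then Itga5 at 1.26 in RPC and 2.87 in RP and Itgb4 at 1.23 in both. Lowest were Itgb8, at 0.297 CPM per kb in RPC and 0.151 in RP, and Itga2, at 0.0347 in RPC and 0.239 in RP, which changed places between the genotypes.

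Itgb1, Itga3 and Itga6 together took 95.3% to 97.1% of the summed per-kilobase level of the 10 genes in RPC tumours 3, 5 and 6. They took 70.7% to 84.3% in RPC tumours 1, 2, 4 and 7 and 61.8% to 87.9% in RP. Their share was thus higher in each of these 3 tumours than in any of the other 11. Itga3 and Itga6, like Itga7, encode alpha chains of laminin receptors. Among the 12 alpha genes whose products can pair with the Itgb1 chain, they made up 74.0% to 93.0% of the per-kilobase sum in RPC tumours 3, 5 and 6, 57.0% to 62.6% in the other 4 RPC tumours and 35.2% to 72.0% in RP. The ratio of Itgb1 to the sum of these 12 alpha genes was 1.55 to 4 (median 2.24) in RPC and 0.737 to 1.82 (median 1.35) in RP, per kilobase.

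**Figure D1:**
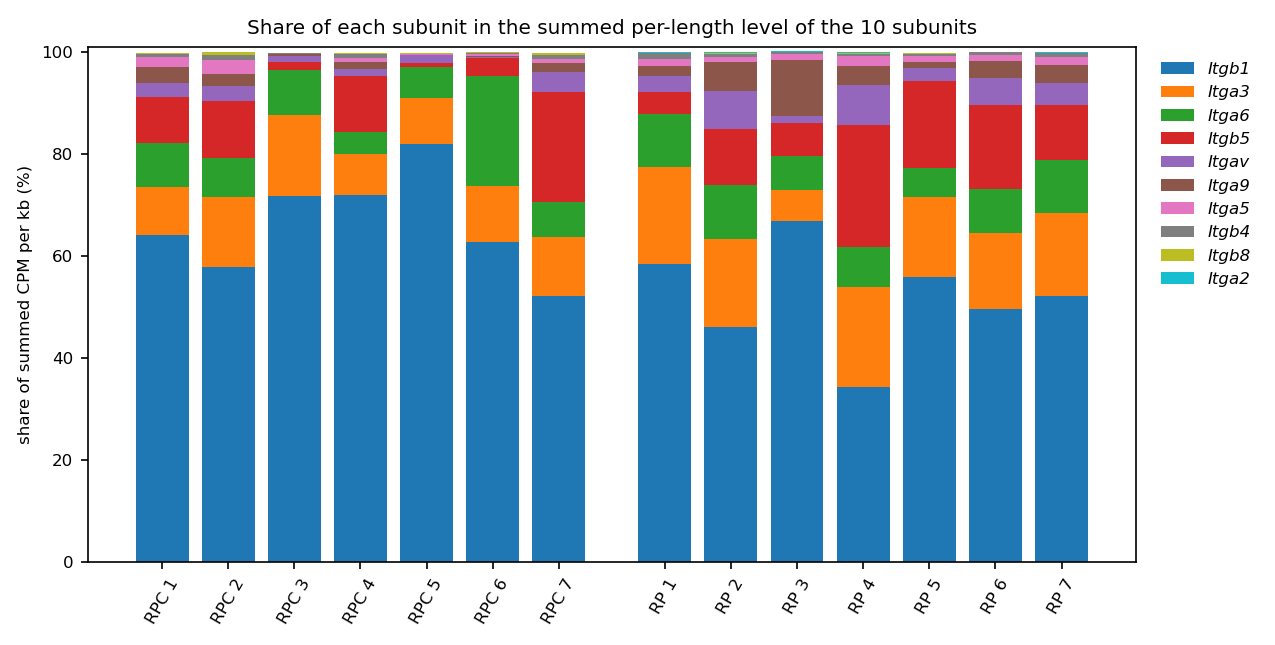
Stacked bars of the share (%) of each of the 10 subunit genes in their summed level per kilobase of transcript, 1 bar per tumour, RPC left and RP right. Itgb1, Itga3 and Itga6, at the base of each bar, fill 95.3% to 97.1% of the bars of RPC tumours 3, 5 and 6.

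Against this background, the comparison of RPC with RP asked whether Crebbp deletion went with a different integrin repertoire. None of the 10 genes passed the test (quasi-likelihood test of edgeR, p under 0.05 after Benjamini-Hochberg adjustment over 14804 tested genes), where 2.21% of all tested genes did, 1.09% as higher and 1.12% as lower in RPC. At an unadjusted p under 0.05 there were 4 of 10, against 21.3% of all tested genes. These were Itga3, Itga9 and Itgav with lower fitted levels in RPC (11.1% of all tested genes) and Itgb8 with a higher one (10.3%). No member had all 7 RPC tumours above or below all 7 RP tumours, as 0.473% and 0.561% of all tested genes had. DESeq2, which gave no adjusted p for Itga2, and limma-voom also called 0 of the 10, where they called 1431 and 503 of 14804 genes. The median log2 fold change of RPC over RP was -0.58 over the 10 genes and 0.00 over all tested genes, and 8 of the 10 were negative, against 49.8% of all tested genes.

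Without RPC tumours 3, 5 and 6, 0 of the 10 were called by edgeR (0.0716% of all tested genes), and 1 had an unadjusted p under 0.05 (11.9% of all tested genes). That 1 was Itgb8, higher in RPC (4.83% of all tested genes), and 0 were lower (7.05%). The median was then -0.18, with 6 of 10 values negative, against 51% of all tested genes. With the mean of 53 non-tumour cell markers as a term in the fit, 0 were called (0.0203% of all tested genes). An unadjusted p under 0.05 was reached by 1 (9.97% of all tested genes), and the median was -0.12. The 53 markers include Ctss. Their mean log2 CPM was -0.96 to -0.72 in RPC tumours 3, 5 and 6 and 2.85 to 5.39 in all other tumours. The term thus largely follows the same split, and is no separate check from leaving those 3 out.

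**Figure D2:**
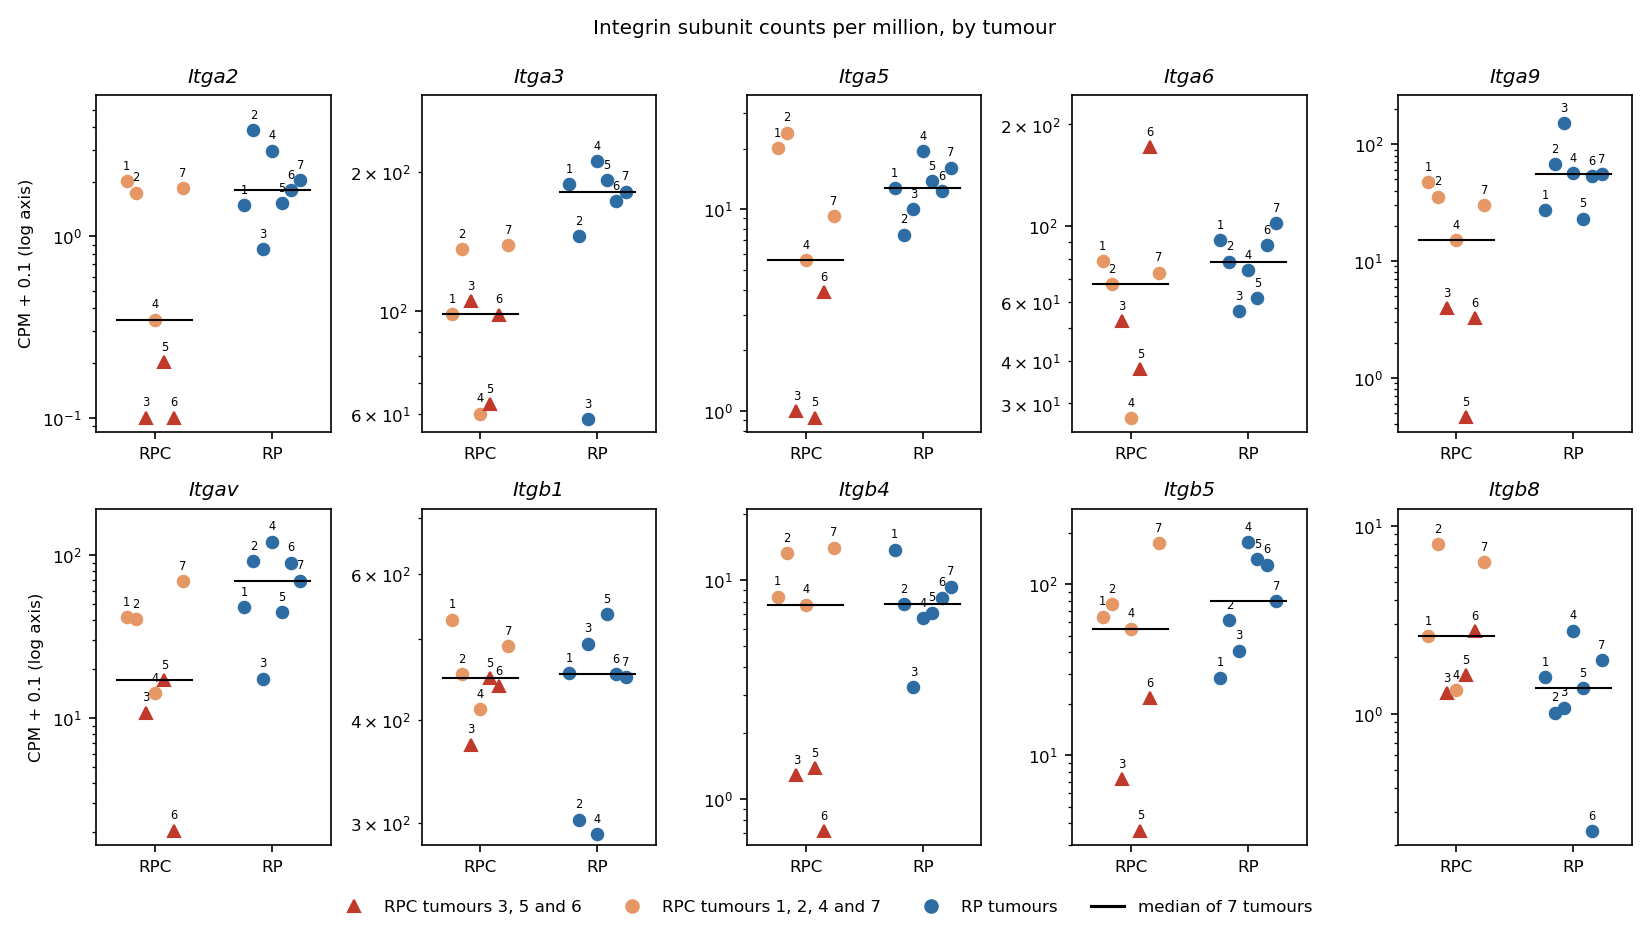
CPM plus 0.1 on a log axis for each of the 10 integrin subunit genes, 1 point per tumour with its number, RPC left and RP right, and a line at the median of 7. RPC tumours 3, 5 and 6 (triangles) lie below all other tumours for Itga5, Itga9, Itgb4 and Itgb5, and for Itga2 too as counted, where RPC tumour 4 had 3 reads, but among them for Itga3, Itgb1 and Itgb8.

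Of the laminin receptor genes, Itga3 ran from 60 to 139 CPM in RPC (median 98.3) and from 58.4 to 211 CPM in RP (median 181). All 7 RPC tumours were below the RP median, and 6 of the 7 RP tumours were above every RPC tumour. RP tumour 3, at 58.4 CPM, was the exception. Itga3 averaged 100 ± 31.3 CPM in RPC and 164 ± 50.7 CPM in RP (SD, n = 7 each; log2 fold change -0.67, SE 0.24, adjusted p by edgeR = 0.129). Without RP tumour 3 it passed the test (log2 fold change -0.81, SE 0.18, adjusted p by edgeR = 0.0284), the only call of a member among the 14 fits that each left out 1 tumour. That fit also called the most genes of those 14, 898 of 14965 tested, against 327 of 14804 with all tumours.

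The Itga3 values of RPC tumours 3, 5 and 6 lay among those of the other RPC tumours. Itga3 was at 105, 62.9 and 98.2 CPM in RPC tumours 3, 5 and 6, and at 98.3, 136, 60 and 139 CPM in RPC tumours 1, 2, 4 and 7. The log2 fold change was -0.59 (SE 0.29, adjusted p by edgeR = 0.459) without RPC tumours 3, 5 and 6 and -0.47 (SE 0.28, adjusted p by edgeR = 0.625) with the marker term.

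Itga6 ran from 27.0 to 171 CPM in RPC (median 67.4) and from 56.0 to 102 CPM in RP (median 78.5). The groups overlapped, and the log2 fold change was -0.08 (SE 0.32, adjusted p by edgeR = 0.898), and -0.34 (SE 0.26, adjusted p by edgeR = 0.664) without RPC tumours 3, 5 and 6. Itga6 differed widely among RPC tumours 3, 5 and 6, at 52.5, 37.8 and 171 CPM, the last being the highest of all 14 tumours. RPC tumours 1, 2, 4 and 7 were at 78.7, 67.4, 27.0 and 72.9 CPM.

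Itgb4, whose product joins that of Itga6 in the hemidesmosomes of epithelium, ran from 0.616 to 14 CPM in RPC (median 7.65) and from 3.15 to 13.7 CPM in RP (median 7.66). Below every RP tumour were RPC tumours 3, 5 and 6, at 1.19, 1.29 and 0.616 CPM. RPC tumours 1, 2, 4 and 7, at 8.32, 13.2, 7.65 and 14 CPM, lay within or just above the RP range, and the lowest of them was 5.93 times the highest of the 3. Itga6 and Itgb4 therefore parted in RPC tumour 6, which had the highest Itga6 and the lowest Itgb4 of the 14. Fitted RPC over RP, Itgb4 came to -0.26 on the log2 scale (SE 0.60, adjusted p by edgeR = 0.824), and it was positive, at 0.44 (SE 0.34, adjusted p by edgeR = 0.673), without RPC tumours 3, 5 and 6.

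Itgb1, the chain that most of these alpha chains pair with, was the most even of the 10 genes in RPC. It ran from 373 to 528 CPM in RPC (median 449) and from 291 to 536 CPM in RP (median 454), averaging 449 ± 50.3 CPM in RPC and 426 ± 93.2 CPM in RP (SD, n = 7 each). The highest tumour was 1.41 times the lowest in RPC and 1.84 times in RP. Itgb1 in RPC tumours 3, 5 and 6 was at 373, 449 and 439 CPM, next to 412 to 528 CPM in the other RPC tumours. RPC over RP, Itgb1 came to 0.10 on the log2 scale (SE 0.16, adjusted p by edgeR = 0.75), and between 0.01 and 0.17 in all 23 alternatives.

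Itga2, the alpha chain of a collagen receptor, was the lowest alpha gene of the 10. It ran from 0 to 1.91 CPM in RPC (median 0.247) and from 0.751 to 3.74 CPM in RP (median 1.70). In RPC tumours 3 and 6 no read was counted, which allows up to 0.298 and 0.264 CPM, and RPC tumours 5 and 4 had 2 and 3 counts. RPC tumours 1, 2 and 7, at 1.91, 1.64 and 1.75 CPM, lay within the RP range. For Itga2 the log2 fold change was -1.24 (SE 0.81, adjusted p by edgeR = 0.392), and -0.47 (SE 0.55, adjusted p by edgeR = 0.814) without RPC tumours 3, 5 and 6.

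Itga5, the alpha chain of the classical fibronectin receptor, ran from 0.826 to 23.9 CPM in RPC (median 5.51) and from 7.39 to 19.3 CPM in RP (median 12.6). It was at 0.895, 0.826 and 3.78 CPM in RPC tumours 3, 5 and 6, all below the other 11. RPC tumours 1 and 2, at 20 and 23.9 CPM, were above every RP tumour, so RPC values lay on both sides of the RP range. For Itga5 the log2 fold change was -0.48 (SE 0.62, adjusted p by edgeR = 0.672), and its sign turned to 0.19 (SE 0.39, adjusted p by edgeR = 0.898) without RPC tumours 3, 5 and 6.

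Itga9, which encodes the alpha chain of a receptor for tenascin-C and other ligands, ran from 0.361 to 47.1 CPM in RPC (median 15.1) and from 23.0 to 151 CPM in RP (median 55.3). All 7 RPC tumours were below the RP median. RPC tumours 3, 5 and 6 were at 3.88, 0.361 and 3.17 CPM, and RPC tumours 1, 2, 4 and 7 at 47.1, 35.5, 15.1 and 30.0 CPM. The highest RPC tumour was 130 times the lowest, the widest span of any member in RPC for which each tumour had more than 3 counts. Its log2 fold change of -1.70 (SE 0.76, adjusted p by edgeR = 0.213) was the largest in size among the 10. It became -0.98 (SE 0.51, adjusted p by edgeR = 0.482) without RPC tumours 3, 5 and 6 and -1.30 (SE 0.66, adjusted p by edgeR = 0.541) with the marker term. Without RP tumour 3, at 151 CPM, it was -1.24 (SE 0.74, unadjusted p by edgeR = 0.12, adjusted p by edgeR = 0.299).

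Itgav, the alpha chain shared by the vitronectin receptors and the activators of latent TGF-beta, ran from 1.94 to 69.4 CPM in RPC (median 17.0) and from 17.4 to 121 CPM in RP (median 69.5). All 7 RPC tumours were below the RP median, and 4 of them below every RP tumour. RPC tumour 6 was by far the lowest, at 1.94 CPM, while RPC tumours 3 and 5, at 10.7 and 17.0 CPM, stood beside RPC tumour 4 at 14.1 CPM. RPC tumours 1, 2 and 7 were at 41.6, 40.2 and 69.4 CPM. The log2 fold change was -1.28 (SE 0.57, adjusted p by edgeR = 0.211), -0.73 (SE 0.46, adjusted p by edgeR = 0.576) without RPC tumours 3, 5 and 6, and -0.57 (SE 0.52, adjusted p by edgeR = 0.79) with the marker term.

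Itgb5, a partner of Itgav in vitronectin binding, ran from 3.51 to 173 CPM in RPC (median 54.8) and from 28.3 to 175 CPM in RP (median 79.4). RPC tumours 3, 5 and 6, at 7.16, 3.51 and 21.5 CPM, were below every other tumour, and RPC tumours 1, 2, 4 and 7, at 64.4, 76.2, 54.8 and 173 CPM, lay within the RP range. Its log2 fold change of -0.71 (SE 0.66, adjusted p by edgeR = 0.554) came to -0.03 (SE 0.46, adjusted p by edgeR = 0.992) without RPC tumours 3, 5 and 6.

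Itgb8, the other partner of Itgav among the members and an activator of latent TGF-beta, was the 1 subunit beside Itgb1 with a positive value. It ran from 1.19 to 7.86 CPM in RPC (median 2.49) and from 0.138 to 2.66 CPM in RP (median 1.27), averaging 3.32 ± 2.68 CPM in RPC and 1.32 ± 0.79 CPM in RP (SD, n = 7 each). RPC tumours 2 and 7 were above every RP tumour, and 5 of 7 RPC tumours were above the RP median. RPC tumours 3, 5 and 6, at 1.19, 1.5 and 2.64 CPM, overlapped RPC tumours 1, 2, 4 and 7, at 2.49, 7.86, 1.23 and 6.32 CPM, although RPC tumour 3 was the lowest of the 7.

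The log2 fold change of Itgb8 was 1.33 (SE 0.56, adjusted p by edgeR = 0.192). It was 1.74 (SE 0.62, adjusted p by edgeR = 0.284) without RPC tumours 3, 5 and 6 and 1.85 (SE 0.55, adjusted p by edgeR = 0.269) with the marker term. With 1 tumour at a time left out it ran from 0.97 to 1.58. It was 0.97 without RPC tumour 2 (unadjusted p by edgeR = 0.0965) and 1.13 without RPC tumour 7 (unadjusted p by edgeR = 0.0726). The Itgb8 levels rest on few reads, from 12 to 86 counts per library in RPC and from 3 to 63 in RP. Per kilobase, the ratio of Itgb8 to Itgb5 was 0.048 to 0.167 in RPC tumours 3, 5 and 6, 0.0088 to 0.0403 in RPC tumours 1, 2, 4 and 7 and 0.000413 to 0.0201 in RP, where the lowest rests on 3 Itgb8 counts.

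**Figure D3:**
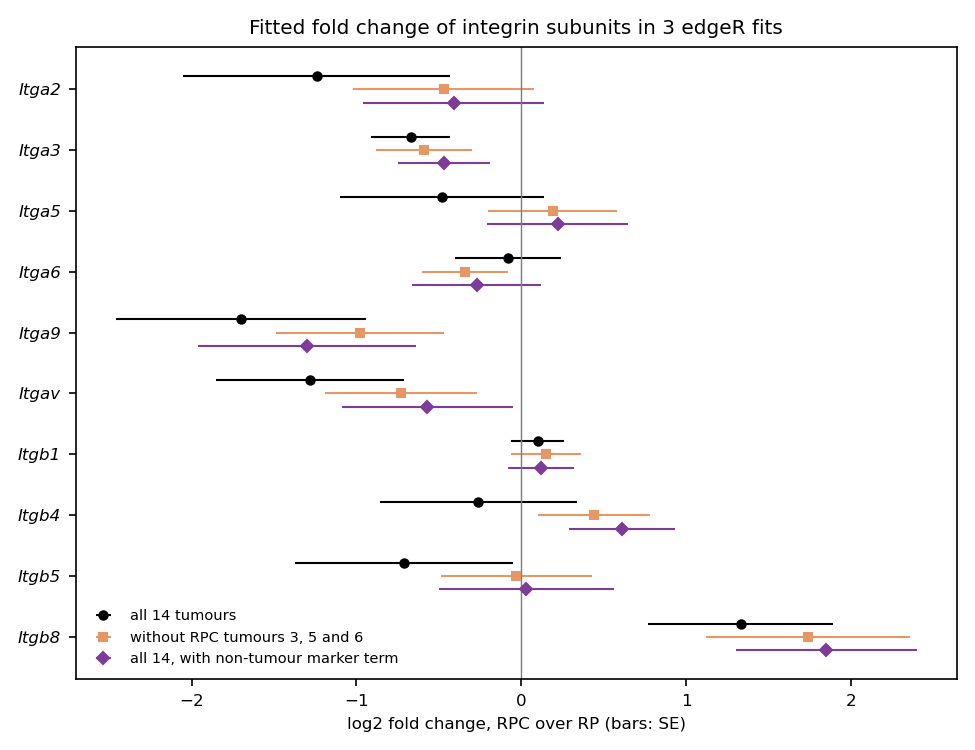
Log2 fold change of RPC over RP with its SE for each member, in edgeR fits of all 14 tumours, without RPC tumours 3, 5 and 6, and of all 14 tumours with the mean of non-tumour cell markers as a term. Itga2, Itga3, Itga6, Itga9, Itgav, Itgb1 and Itgb8 keep their sign in the 3 fits. Itga5 and Itgb4 change it in both other fits, and Itgb5 changes it with the marker term.

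In RPC tumours 3, 5 and 6, where the macrophage and mural marker sums were low, some subunits were low as well and others were not. Of the 10 members, 5 were below all other 11 tumours in all 3 (Itga2, Itga5, Itga9, Itgb4 and Itgb5), where 9.4% of all tested genes were. For Itga2 this order is not firm, since the 0 counts of RPC tumours 3 and 6 allow up to 0.298 and 0.264 CPM, above the 0.247 CPM (3 counts) of RPC tumour 4. The same 5, with the same limit for Itga2, were below the other 4 RPC tumours, against 13.3% of all tested genes, and 0 were above them, against 5.28%. Itga3, Itga6, Itgb1 and Itgb8 overlapped the other RPC tumours, as Itgav did through RPC tumour 5. No member was above all other tumours in all 3, as 2.15% of all tested genes were. Within the 5, the gap between the lowest of RPC tumours 1, 2, 4 and 7 and the highest of the 3 was 5.93 times for Itgb4, 3.90 times for Itga9, 2.55 times for Itgb5 and 1.46 times for Itga5. In the fit of RPC over RP with the marker term, the log2 fold changes were -0.41 for Itga2, 0.22 for Itga5, -1.30 for Itga9, 0.61 for Itgb4 and 0.03 for Itgb5. The part of those markers in the levels of single tumours was not tested.

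The other 16 integrin subunit genes, among them those of leukocytes and platelets, give a scale for these gaps. Of the 15 that were tested, 10 were below all other 11 tumours in all 3, against 9.4% of all tested genes. The margin was narrow for Itga4, with 7.69 CPM in RPC tumour 5 and 7.80 CPM in RP tumour 6. It was narrow for Itgb7 too, with 0.352 CPM (4 counts) in RPC tumour 6 and 0.375 CPM (5 counts) in RP tumour 3. Itgb2, the beta chain of leukocyte integrins, was at 0.0994, 0 and 0.088 CPM in RPC tumours 3, 5 and 6, and from 13.7 to 71.6 CPM in the other RPC tumours. Itgax, the CD11c gene, was at 0.199, 0 and 0 CPM there and from 8.22 to 60 CPM in the other RPC tumours. Of the 10, Itgb2 and Itgax had the widest gaps, at 138 and 41.4 times, taken as for the members above. The gap was 5.22 times for Itgal, 3.07 for Itgb3, 2.84 for Itga7, 2.8 for Itgb7 and 2.19 for Itga1. It was 1.3 times for Itga4 and 1.16 times for Itgb6, and that of Itgam lay between those of Itgal and Itgax. The 5 tested genes that were not below all other 11 tumours in all 3 were Itga2b, Itga8, Itga10, Itga11 and Itgae. Itga10, Itga2b and Itgae, for example, overlapped between the 3 and the other RPC tumours, at 7.48 to 10.7, 1.41 to 3.48 and 1.5 to 2.58 CPM in the 3 and 4.57 to 13.9, 1.81 to 3.95 and 1.07 to 3.50 CPM in the others. Itgb6, the epithelial partner of Itgav, was at 0.497, 0.103 and 0.352 CPM in the 3, but also at 0.576 CPM in RPC tumour 4, against 9.04 to 22 CPM in RPC tumours 1, 2 and 7.

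**Figure D4:**
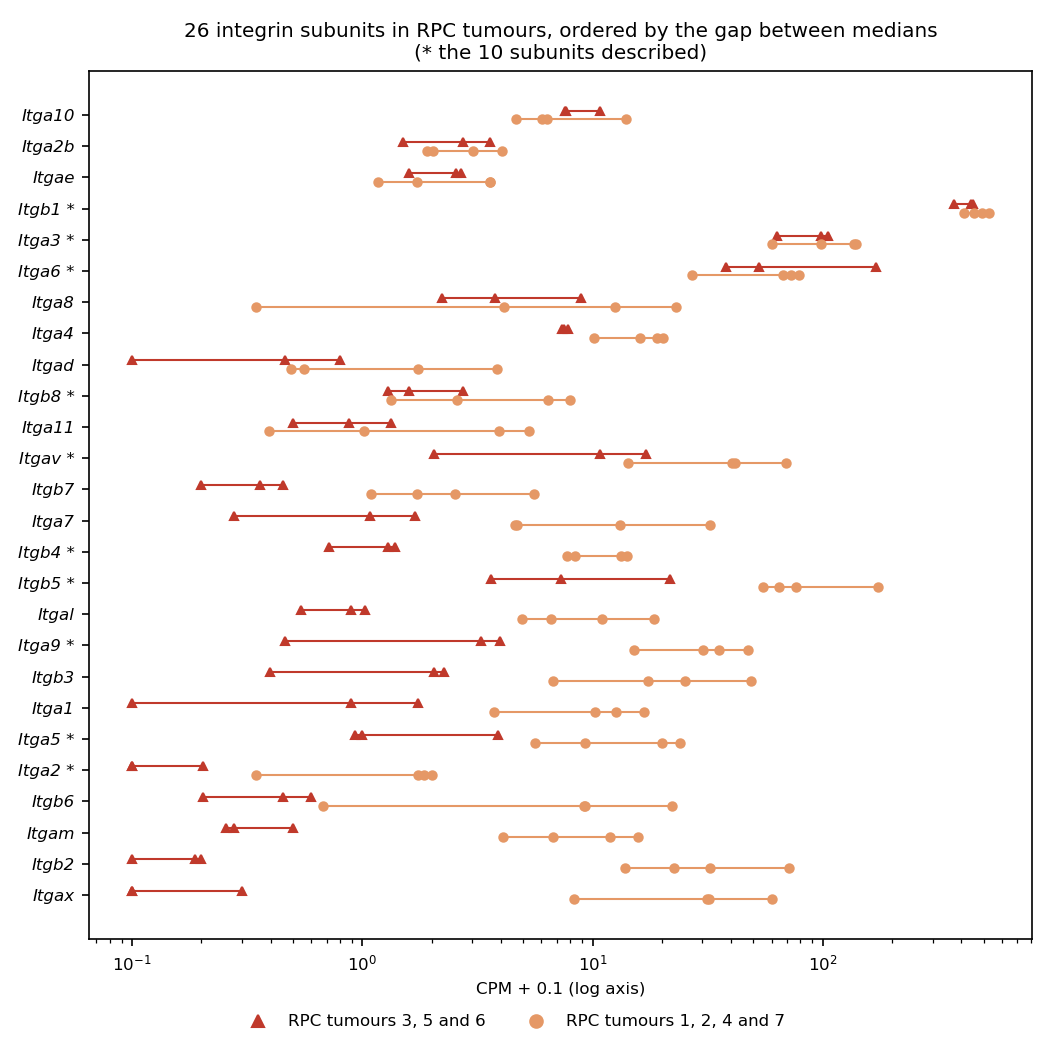
CPM plus 0.1 on a log axis of 26 integrin subunit genes in the RPC tumours, with RPC tumours 3, 5 and 6 as triangles above RPC tumours 1, 2, 4 and 7 as circles, and a line over each range. Genes are ordered by the gap between the medians: Itgb1, Itga3 and Itga6 near the top overlap, and the leukocyte genes Itgb2 and Itgax at the bottom do not.

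None of these 15 genes was called between RPC and RP (edgeR; 1 at an unadjusted p under 0.05, against 21.3% of all tested genes). Their median log2 fold change was -0.54, but 0.26 with the marker term. Without RPC tumours 3, 5 and 6 it was -0.02 over 16 tested genes, with Itgad tested as well. The smallest p was that of Itga4, whose product, like that of Itga9, binds the cell adhesion molecule VCAM-1, with 7.26 to 20.1 CPM in RPC and 7.80 to 162 CPM in RP (log2 fold change -1.65, SE 0.65, adjusted p by edgeR = 0.167). The Itga4 log2 fold change was -1.29 without RPC tumours 3, 5 and 6 and -1.60 with the marker term. RP tumour 3 alone reached 162 CPM of Itga4, and the next highest RP tumour was at 27.0 CPM. The same RP tumour 3 had the highest Itga9, 151 CPM, of the 14 tumours. It was also the lowest RP tumour for 5 of the 10 members (Itga2, Itga3, Itga6, Itgav and Itgb4). Its mean log2 CPM of the 53 non-tumour markers, 3.22, was the lowest of the RP tumours, whose highest was 5.39. Itgal, Itgb7 and Itga10 had log2 fold changes of -1.44, -1.42 and -0.54 (adjusted p by edgeR = 0.275, 0.365 and 0.459), which were -0.36, -0.06 and -0.67 with the marker term.

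RP tumour 4 was the opposite, with the highest value in RP for 5 members (Itga3, Itga5, Itgav, Itgb5 and Itgb8) and the lowest for Itgb1. In RPC, tumour 7 was the highest for 4 members and tumour 1 for 3. RPC tumour 4, in which Ctss was at 61.6 CPM, was the lowest of the 7 for Itga3 and Itga6, and the lowest of RPC tumours 1, 2, 4 and 7 for all 10 members.

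The matrix proteins that integrins bind were read from a list of 37 ligand genes. Of the 36 tested, 0 were called by edgeR, 1 was higher and 5 lower in RPC at an unadjusted p under 0.05 (10.3% and 11.1% of all tested genes), and the median log2 fold change was -0.19. Tgfb3, a TGF-beta that the Itgav receptors release from its latent form, averaged 25.4 ± 20.2 CPM in RPC and 77.0 ± 24 CPM in RP (SD, n = 7 each; log2 fold change -1.60, adjusted p by edgeR = 0.0714; -1.07 with the marker term). Vtn, vitronectin, averaged 1.78 ± 1.86 CPM in RPC and 12.8 ± 10.7 CPM in RP (log2 fold change -2.84, adjusted p by edgeR = 0.0956; -1.57 with the marker term). RPC tumours 3, 5 and 6, at 0.0516 to 0.352 CPM of Vtn, were below all other 11. Fn1, fibronectin, was at 36.6 to 129 CPM in RPC tumours 3, 5 and 6, at 112 to 405 CPM in the other RPC tumours and at a mean of 404 ± 171 CPM in RP (log2 fold change -1.16, adjusted p by edgeR = 0.179; -0.58 with the marker term).

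Edil3, a secreted protein that binds Itgav receptors, had a positive value, with 10.3 ± 7.08 CPM in RPC and 1.84 ± 1.20 CPM in RP (SD, n = 7 each; log2 fold change 2.54, adjusted p by edgeR = 0.0774). In 6 of 7 RPC tumours Edil3 exceeded the highest RP value. Its log2 fold change with the marker term was 2.15. In RPC tumours 3, 5 and 6, 16 of the 36 ligand genes were below all other 11 tumours, against 9.4% of all tested genes. Without these 3 tumours the median of the list was 0.18 over 37 tested genes, opposite in sign to that of all 14 tumours.

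Inside the cell, integrin tails are switched on by talin and kindlin and tied to actin by the adhesion complex. Of 33 such genes, all tested, 0 were called by edgeR, and 2 were higher and 6 lower in RPC at an unadjusted p under 0.05 (10.3% and 11.1% of all tested genes). The median log2 fold change was -0.17, and turned to 0.03 without RPC tumours 3, 5 and 6 and to 0.06 with the marker term. In RPC tumours 3, 5 and 6, 6 of the 33 were below all other 11 tumours, against 9.4% of all tested genes. Actn1, an alpha-actinin that crosslinks actin, averaged 132 ± 82.6 CPM in RPC and 380.0 ± 152 CPM in RP (SD, n = 7 each; log2 fold change -1.5, SE 0.38, adjusted p by edgeR = 0.0528). Its paralog Actn4 had a log2 fold change of -0.54 (adjusted p by edgeR = 0.0668). The adaptor gene Pxn, paxillin, had one of -0.70 (adjusted p by edgeR = 0.102). Kank1, which encodes a talin-binding protein, had a positive one of 1.10 (adjusted p by edgeR = 0.107). With the marker term the log2 fold changes were -1.15 for Actn1, -0.46 for Actn4, -0.32 for Pxn and 1.03 for Kank1.

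Among 14 genes of integrin inhibitors and membrane partners, 0 were called by edgeR, and the median log2 fold change was -0.25. At an unadjusted p under 0.05, 1 was higher and 3 were lower (10.3% and 11.1% of all tested genes). The tetraspanin gene Cd9 averaged 619 ± 431 CPM in RPC and 1510 ± 497 CPM in RP (SD, n = 7 each; log2 fold change -1.28, adjusted p by edgeR = 0.079; -0.76 with the marker term), and 6 of 7 RPC tumours were below every RP tumour. Cd82, another tetraspanin, and Dok1, which competes with talin for the beta tail, had log2 fold changes of -1.42 and -1.29 (adjusted p by edgeR = 0.104 and 0.166; -0.77 and -0.73 with the marker term), and Slc3a2, the heavy chain of an amino acid transporter that binds beta tails, one of 0.59 (adjusted p by edgeR = 0.10; 0.38 with the marker term). Of 5 hemidesmosome genes only Dst and Plec were tested, both genes of cytoskeletal linkers. Dst averaged 253 ± 92.7 CPM in RPC and 419 ± 112 CPM in RP (SD, n = 7 each; log2 fold change -0.71, adjusted p by edgeR = 0.0774) and 6 of 7 RPC tumours had less Dst than the lowest RP tumour. Plec had a log2 fold change of -0.40 (adjusted p by edgeR = 0.179). With the marker term the log2 fold changes were -0.52 for Dst and -0.26 for Plec.

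The genes most like each member were sought over the 11 tumours other than RPC tumours 3, 5 and 6, as a description of log2 CPM. These 11 libraries differ in cell mixture, with a mean log2 CPM of the 53 non-tumour markers from 2.85 in RPC tumour 4 to 5.39 in RP tumour 7, and its part in the likeness was not tested. Itga3 was closest to Csrnp1, a nuclear factor (Pearson r = 0.978, Spearman rho = 0.818; r = 0.911 without RPC tumour 4 and RP tumour 3), and to Wfdc2, a secreted epithelial protein (r = 0.969, rho = 0.90; r = 0.866 without those 2). Itga5 was closest to the matricellular genes Ctgf (r = 0.96, rho = 0.909) and Sparc (r = 0.935, rho = 0.945), with r of 0.932 and 0.864 without RPC tumours 2 and 4. Itga9 was closest to Pgm1, a sugar phosphate enzyme (r = 0.952, rho = 0.864), and Kit, a receptor tyrosine kinase (r = 0.883, rho = 0.891), with r of 0.839 and 0.835 without RP tumour 3 and RPC tumour 4. Itgb1 was closest to the RNA-binding protein gene Ewsr1 (r = 0.969, rho = 0.864) and the transcription factor gene E2f4 (r = 0.963, rho = 0.809), with r of 0.928 for each without RP tumours 2 and 4. Itga6 was closest to Itprip (r = 0.923, rho = 0.936), with r of 0.779 without RPC tumour 4 and RP tumour 7. The likeness of Itga6 to Arl5c (r = 0.919, rho = 0.491) rested on those 2 tumours, since r was 0.297 without them. Itgav was closest to Ficd (r = 0.944, rho = 0.955) and Reps2 (r = 0.942, rho = 0.927), with r of 0.916 and 0.821 without RPC tumour 4 and RP tumour 3. Itgb5 was closest to Pigg (r = 0.934, rho = 0.864) and Gstz1 (r = 0.922, rho = 0.891), with r of 0.886 and 0.848 without RP tumours 1 and 4. Itgb4 was closest to Ccdc11 and Fam171b (r = 0.914 for each, rho = 0.873 and 0.845), with r of 0.853 and 0.752 without RP tumours 1 and 3. For the thinly counted Itga2 and Itgb8 the closest were Tbc1d8b (r = 0.941, rho = 0.90) and C1galt1 (r = 0.93, rho = 0.755), and Btaf1 (r = 0.876, rho = 0.773) and Akap5 (r = 0.84, rho = 0.773). Their r was 0.761 and 0.719 without RPC tumour 4 and RP tumour 2 for Itga2, and 0.768 and 0.692 without RP tumour 6 and RPC tumour 2 for Itgb8. The closest genes were picked from all tested genes, so high values of r were bound to be found.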

How the data were processed

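RNA-seq counts per gene were deposited by the authors as 1 file per tumour, for 7 RPC and 7 RP tumours. The submitters' processing notes name bcl2fastq 1.8.2, TopHat2 2.0.12, HTSeq 0.6.1 and the mm9 build. For the strand setting and the annotation, nothing is stated in those notes. Rows that name no gene were left out of library sizes. They held 15.1% to 20.5% of records as no feature and 8.44% to 11.2% as not unique. Reads that matched several places were counted for no gene.

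CPM is the count over all counts in genes, without further scaling. Tests used edgeR 4.0.16 in R 4.3.3 on the 14 libraries, with TMM factors, filterByExpr (minimum count 10, minimum total 15), the quasi-likelihood test and Benjamini-Hochberg adjustment over all tested genes. Scripts were tested on simulated data. Alternatives were DESeq2 1.42.0, limma-voom 3.58.1, other scalings and filters, a replicate block, a non-tumour marker term, and left-out tumours. Levels per kilobase used the longest coding transcript of GENCODE M21 (GRCm38), not the build of the counts.

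The labels gave genotype and tumour number. No 2 libraries of a genotype were alike within counting noise (lowest chi-square per degree of freedom 59.2 over 42 pairs). A count of 0 allows up to 3 counts, and such floors cover counting error only. The members, lists and tests were chosen with earlier results of these data known. Named beside the members were the called genes of each list or else up to 4 with the smallest p, and per member the 2 genes with the highest r.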

Additional observations from a re-analysis of the deposited data

Results flagged for a closer look

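In 3 of the 20 gene and genotype sets of 7 tumours, the highest tumour stood far from the nearest other by Dixon's test. Chance gives about 1 such set in 20 for independent, normally distributed values. Whether these CPM values are so distributed was not tested. Itga6 was at 171 CPM in RPC tumour 6, where the other RPC tumours had at most 78.7 CPM. Itgb5 was at 173 CPM in RPC tumour 7, where the next highest RPC tumour had 76.2 CPM, although RP tumours reached 175 CPM. Itga9 was at 151 CPM in RP tumour 3, where the next highest RP tumour had 67.2 CPM. Itgb5 passed narrowly, with a ratio of 0.571. The lowest Itga3 value in RP, that of RP tumour 3, missed narrowly at 0.567.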

How the results depend on the processing

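The number of genes called between RPC and RP was 327 with edgeR, 1431 with DESeq2, 503 with limma-voom, 3 with the non-tumour marker term, 11 without RPC tumours 3, 5 and 6, and 51 to 898 when 1 tumour at a time was left out. With the replicate block it was 74. The labels do not say whether the tumour numbers pair the samples, and the values do not settle it. Correlations of same-numbered tumours ran from -0.05 to 0.32, and 3 of 7 exceeded 0.1. Of the 7 RPC tumours, 3 correlated best with the RP tumour of their own number. Of the 10 members, 0 were called in each setting, the replicate block included, with 1 exception. Itga3 was called without RP tumour 3, in the fit that called 898 genes. Over 23 alternatives for each of 10 members, 222 values kept direction and side of the threshold, 7 reversed and 1 became a call. The log2 fold change turned to 0.22 for Itga5, 0.61 for Itgb4 and 0.03 for Itgb5 with the marker term, to 0.19 for Itga5 and 0.44 for Itgb4 without RPC tumours 3, 5 and 6, and to 0.06 and 0.03 for Itga6 without RPC tumour 4 and RPC tumour 5, within a range of -0.46 to 0.06 when 1 tumour was left out. Limma-voom gave values over 1.5 times those of edgeR for Itga2 (-2.34), Itga5 (-1.29), Itga6 (-0.29), Itgb4 (-0.87) and Itgb5 (-1.38), and the replicate block did for the same 5 (-2.17, -1.31, -0.28, -0.82 and -1.22). Leaving out 1 tumour moved Itga5 to between -0.90 (without RPC tumour 2) and -0.28 (without RPC tumour 3 or 5), Itgb4 to between -0.52 (without RPC tumour 7) and -0.06 (without RPC tumour 6), and Itgb5 to -1.25 without RPC tumour 7. The cause was not tested. Itga2 and Itgb8 have few reads, and DESeq2 gave no adjusted p for Itga2.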
